A study of Mus musculus with 10 samples.

Results

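The genes described here encode the machinery of autophagy and the proteins that switch it and the lysosome on. They were a list of 40 mouse genes, chosen by name for their step in the pathway, and all 40 had a row among the 19764 genes of the count table. A test was possible for 39 of them. Polyadenylated RNA had been sequenced from whole liver of female mice, with 5 libraries per genotype. The GRMAC mice were GRflox; LysM-Cre+/-, that is, the gene of their glucocorticoid receptor was floxed and a Cre recombinase was driven by the promoter of the lysozyme gene Lyz2, which marks macrophages, neutrophils and related myeloid cells. The GRflox mice were littermates with the floxed gene and no Cre, so effects of the Cre and of receptor loss cannot be told apart. Both genotypes were fasted for 8 h from ZT12, the onset of the active phase of mice, and no fed animals were included. The age of the mice was not given in the sources used here. The comparison asks whether liver transcripts differ in fasted mice when the receptor is deleted from myeloid cells.

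Autophagy encloses cytoplasm in a double membrane, the autophagosome, and delivers it to the lysosome for breakdown, which frees amino acids and lipids in a fasted liver. The ULK1 kinase complex starts the process when nutrient signalling through mTORC1 falls, a lipid kinase complex around PIK3C3 marks the growing membrane, and a ubiquitin-like conjugation machinery attaches proteins of the ATG8 family to it. Receptors such as SQSTM1 link cargo to the ATG8 proteins, and the transcription factors TFEB and TFE3 switch on genes of the lysosome and of autophagy. In hepatocytes, transcription of autophagy genes is known to respond to fasting through nuclear receptors, FOXO factors and TFEB.

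None of the 39 tested genes passed edgeR's quasi-likelihood test at a Benjamini-Hochberg adjusted p under 0.05, beside 0.175% of all 12558 genes tested (0.119% higher and 0.0557% lower in GRMAC). Map1lc3a, which encodes the ATG8-family protein LC3A, came nearest, at an adjusted p of 0.0728 with edgeR. Map1lc3a did pass in the authors' deposited table, the only one of the 39 genes to do so (2.56%), where 3.38% of all genes passed. DESeq2 refitted to the counts called the same gene alone, beside 3.39% of all genes. The deposited table is itself labelled as DESeq2, and both gave Map1lc3a a log2 fold change of −0.24. The refit and that table are thus not separate evidence. At an unadjusted edgeR p under 0.05 there were 3 genes (7.69%), all lower in GRMAC liver, beside 16.3% of all genes in either direction, 8.58% higher and 7.75% lower in GRMAC. They were Map1lc3a, the kinase gene Ulk1, and Wipi2, which encodes a protein that binds the marked membrane. The 5 GRMAC libraries did not overlap the 5 GRflox libraries for Map1lc3a and Wipi2 (5.13% of the 39 genes), where 4.05% of all genes did not overlap and 2.01% lay lower in GRMAC without overlap. Counted in either direction, the shares past a p were thus no larger than over all genes. The share that the deposited table called lower was larger but rests on 1 gene, and that without overlap rests on 2 genes.

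The changes were small throughout. The log2 fold changes of the 39 genes ran from −0.23 (Map1lc3a) to 0.13 (Wipi1), with a median of −0.03, beside a median of 0.00 over all genes tested. They lay within 0.1 of 0 for 27 genes (69.2%), beside 48.0% of all genes. The 95% confidence interval of the fold change stayed within 1.5-fold in either direction for all 39 genes, beside 77.1% of all genes. These genes are expressed at a median of 60.7 CPM (counts scaled to library size by TMM), against 18.1 CPM over all genes. Among 3310 genes with a mean between 31.7 and 133 CPM, the middle range of the listed genes, 94.1% had an interval that narrow. The fold change was negative for 28 genes (71.8%) and positive for 11, where 49.8% of all genes had a negative one. That count was 23 when the libraries were scaled by their totals alone and 31 after a correction for GC content, so it moved with the scaling. A scaling moves all genes, and the 49.8% holds for TMM only. With upper-quartile scaling the median log2 fold change was −0.023 for the listed genes and 0.013 over all genes.

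**Figure D1:**
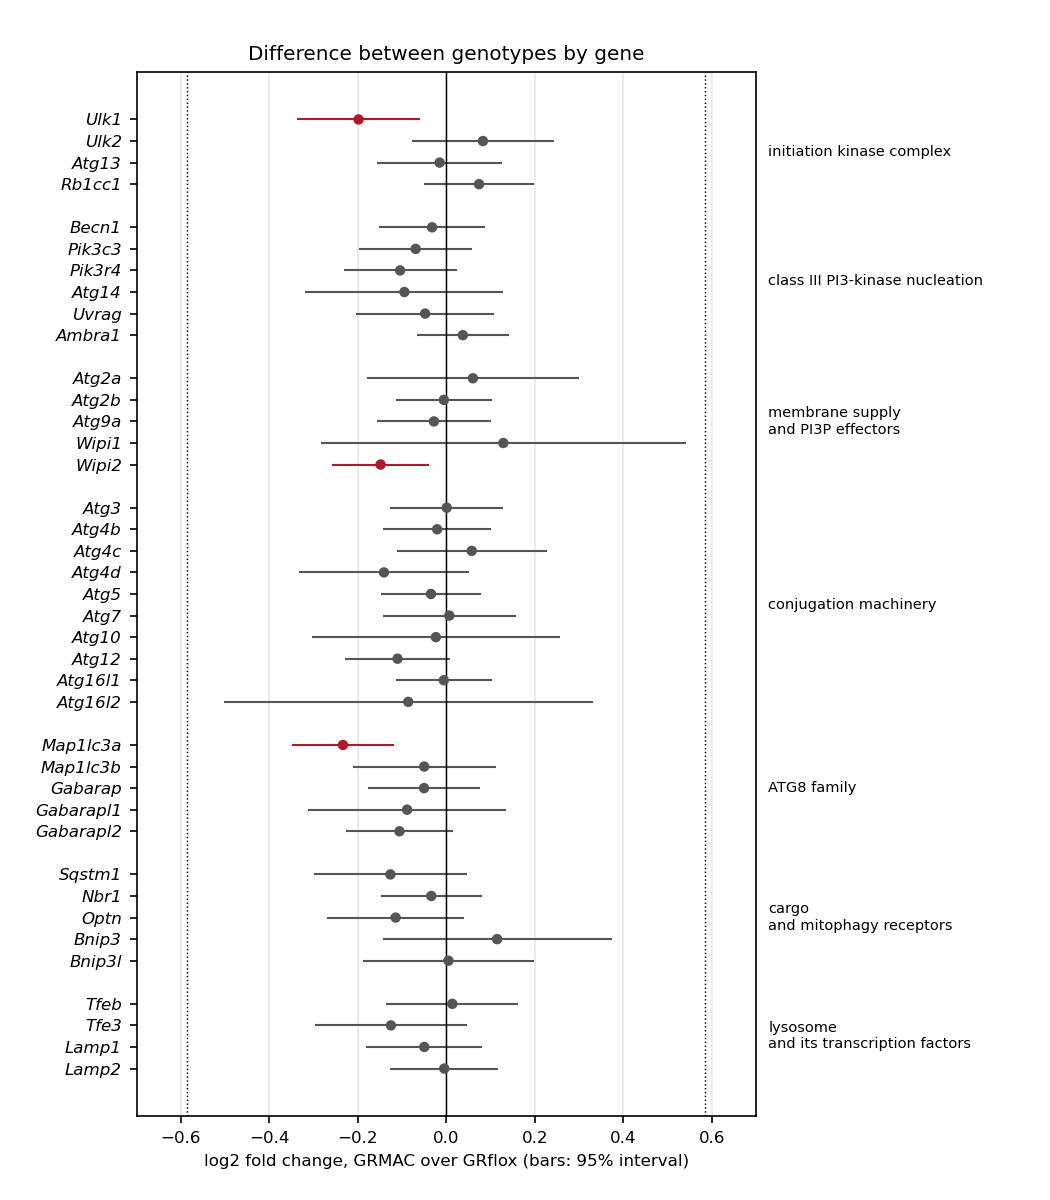
Log2 fold change of GRMAC over GRflox liver for each of the 39 tested genes, by step of the pathway, with the 95% confidence interval of the edgeR fit as a bar. The intervals of Map1lc3a, Ulk1 and Wipi2 lie below 0, the other 36 cross it, and all 39 stay within 1.5-fold.

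The libraries of GRMAC held 23258884 to 26116916 counts and those of GRflox 25697931 to 27692528, and the totals differed between the genotypes (two-sided exact permutation test over 252 assignments, p = 0.0159). GC-rich transcripts were counted relatively less in GRMAC libraries: the slope of log2 level on GC content, per 10 percentage points, averaged −0.04 ± 0.03 in GRMAC and 0.04 ± 0.03 in GRflox libraries (SD, n = 5 each; exact permutation p = 0.0159). Nr3c1, the targeted receptor gene, ranged from 74.7 to 93.96 CPM in GRMAC and from 63.8 to 81.2 CPM in GRflox liver, and 1 count per gene in whole liver does not check a deletion in myeloid cells. Of the hepatocyte markers, none of 18 was at 0, and their summed level was 148894 to 169607 CPM in GRMAC and 149296 to 167178 CPM in GRflox liver. The 19 Kupffer cell markers, none at 0, summed to 783 to 941 CPM in GRMAC and 685 to 872 CPM in GRflox liver. Of these markers 5 were higher and 1 lower in GRMAC at an unadjusted p under 0.05, beside 8.58% and 7.75% of all genes. The authors' deposited table called Cd5l (log2 fold change 0.55 here) and Nr1h3 (−0.16), where it called 3.38% of all genes. Both of these and Cybb (0.36) were without overlap between the genotypes, beside 4.05% of all genes. The 12 pan-myeloid markers that could be tested, none at 0, summed to 75.5 to 111 CPM in GRMAC and 82.8 to 103 CPM in GRflox liver. By gene, 9 of the 12 were higher in GRMAC and 3 lower, with a median log2 fold change of 0.15, and Lyz2, where the Cre sits, had the most negative one, −0.62. Lyz2 is part of that sum, and an effect of the Cre allele on its transcript was not tested. The part of these markers in the values of the listed genes was not tested, and in bulk liver fewer cells of a type and less RNA per cell cannot be told apart.

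Genes of the initiation kinase complex, which receives the signal to start autophagy, did not move one way. Ulk1 encodes the kinase that phosphorylates the rest of the complex and is itself held back by mTORC1 and activated by AMPK. Its row lies at chr5:110784489-110810081 on the minus strand (mm10). Ulk1 had 113.5, 102.9, 99.0, 113.2 and 119.1 CPM in the GRMAC livers 1 to 5, against 134.9, 117.5, 124.4, 122.1 and 129.5 CPM in the GRflox livers 1 to 5. The groups overlapped by 1 library: GRMAC liver 5 lay above GRflox liver 2, and every other GRMAC value was below every GRflox value. Ulk1 averaged 109.6 ± 8.32 CPM in GRMAC and 125.7 ± 6.72 CPM in GRflox liver (SD, n = 5 each), a log2 fold change of −0.20 ± 0.06 (SE; 95% interval −0.33 to −0.06). The adjusted p was 0.160 with edgeR, 0.0816 with DESeq2 and 0.0819 in the authors' deposited table, so no call was made. The transcript of Ulk1 is GC-rich, at 58.0%, and the fold change was −0.16 after the GC correction (adjusted p = 0.256 with edgeR).

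The other 3 genes of this complex gave smaller differences. Ulk2, a close relative of Ulk1, averaged 62.5 ± 7.27 CPM in GRMAC and 59.0 ± 2.34 CPM in GRflox liver, a log2 fold change of 0.08 with a 95% interval of −0.07 to 0.24. Atg13, the adaptor that mTORC1 also phosphorylates, was at 61.4 ± 5.19 CPM in GRMAC and 62.1 ± 3.50 CPM in GRflox liver (−0.01, interval −0.15 to 0.12). Rb1cc1, which encodes the scaffold FIP200, was at 67.5 ± 3.62 CPM in GRMAC and 64.2 ± 3.69 CPM in GRflox liver (0.07, interval −0.05 to 0.20). Rb1cc1 has the lowest GC content of the listed transcripts, 39.1%, and its fold change was −0.04 after the GC correction.

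Of the membrane genes, Wipi2 was the one with separated groups. Its protein binds the phosphatidylinositol 3-phosphate made by the PIK3C3 kinase and brings the conjugation machinery to the membrane. Its row lies at chr5:142629584-142669370 on the plus strand. Wipi2 had 104.5, 101.3, 102.5, 97.5 and 97.4 CPM in the GRMAC livers 1 to 5, against 109.1, 105.5, 114.7, 110.8 and 117.7 CPM in the GRflox livers 1 to 5. The gap between the groups was narrow, with the highest GRMAC liver at 104.5 CPM and the lowest GRflox liver at 105.5 CPM. Wipi2 averaged 100.7 ± 3.12 CPM in GRMAC and 111.6 ± 4.77 CPM in GRflox liver (SD, n = 5 each), a log2 fold change of −0.15 ± 0.05 (SE; 95% interval −0.26 to −0.04). The adjusted p was 0.176 with edgeR, 0.0683 with DESeq2 and 0.0686 in the authors' deposited table.

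Wipi1, a relative of Wipi2, had the highest fold change of the list, and 1 library set it. It stood at 45.6 CPM in GRMAC liver 4 and at 22.3 to 31.0 CPM in the other 4 GRMAC livers, against 24.1 to 32.9 CPM in GRflox liver. Its log2 fold change was 0.13 with an interval of −0.28 to 0.54, and it was −0.08 without GRMAC liver 4. Atg2a, which encodes a lipid transfer protein that feeds the growing membrane, was also highest in GRMAC liver 4, at 136.6 CPM. Atg2a ranged from 86.6 to 136.6 CPM in GRMAC and from 94.96 to 120.2 CPM in GRflox liver. Its paralog Atg2b varied far less, from 60.7 to 66.6 CPM in GRMAC and from 61.5 to 68.2 CPM in GRflox liver, with a log2 fold change of −0.01. Atg9a, the scramblase of the membrane vesicles, was at 68.5 ± 3.65 CPM in GRMAC and 69.8 ± 4.60 CPM in GRflox liver (−0.03, interval −0.15 to 0.10).

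The promoters just upstream of Ulk1 and Wipi2 are shown because these are the genes with the lowest p-values for which a promoter entry was at hand, and those of Lamp1 and Atg3 because they hold the E-box CACGTG more than once. CACGTG is the core of the element that TFEB and TFE3 are known to bind in genes of the lysosome. Each sequence is the 150 bases before the annotated start, 5′ to 3′ on the strand of the gene, from RefSeq on GRCm38.p6, with CACGTG in capitals.
Ulk1, chr5:110810082-110810231, minus strand: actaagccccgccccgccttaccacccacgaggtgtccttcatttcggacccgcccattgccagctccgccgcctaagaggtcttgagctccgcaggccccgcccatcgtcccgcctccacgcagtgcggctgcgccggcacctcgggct
Wipi2, chr5:142629434-142629583, plus strand: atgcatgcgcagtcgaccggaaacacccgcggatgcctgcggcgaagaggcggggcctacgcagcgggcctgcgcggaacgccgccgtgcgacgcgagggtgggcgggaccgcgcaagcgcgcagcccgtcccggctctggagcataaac
Lamp1, chr8:13159011-13159160, plus strand: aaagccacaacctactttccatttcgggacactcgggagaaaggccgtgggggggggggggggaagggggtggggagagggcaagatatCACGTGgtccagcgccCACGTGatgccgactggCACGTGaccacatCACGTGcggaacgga
Atg3, chr16:45158679-45158828, plus strand: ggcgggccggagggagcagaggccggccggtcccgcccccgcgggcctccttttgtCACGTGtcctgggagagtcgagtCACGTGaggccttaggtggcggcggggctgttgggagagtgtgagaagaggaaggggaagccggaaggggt
Over windows of 250 bases before to 50 after the start, searched on both strands, CACGTG was found in 6 of 39 promoters of the listed genes (15.4%) and in 7.15% of 32851 mouse promoters. The 6 genes were Atg14, Atg3, Atg5, Atg7, Bnip3 and Lamp1, with 4 matches in Lamp1, 2 in Atg3 and 1 in each of the others. The match of Atg7 lies at an annotated start inside the gene, in the window chr6:114670846-114671145, whereas the Atg7 row begins at chr6:114643097. The Lamp1 row begins at chr8:13159135, inside the printed window. The Lamp1 match nearest the annotated start thus lies within the counted row, and the match before it spans the first base of that row. Their log2 fold changes lay between −0.09 (Atg14) and 0.11 (Bnip3), and none had an unadjusted p under 0.05. The FOXO core TGTTTAC was found in 0 of 39 promoters, beside 3.65% of all, and the 15-base palindrome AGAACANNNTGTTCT of the glucocorticoid receptor in 0 of 39, beside 3 of 32851. The palindrome is so rare that 39 promoters would almost never hold it, so its absence here carries no information. A match of letters is not a binding site, and none in this window says nothing of binding elsewhere. The 39 promoters belong to 33 of the 40 genes, some with more than 1 annotated start, and Bnip3l, Rb1cc1, Becn1, Atg12, Map1lc3a, Pik3c3 and Atg16l1 had none.

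The genes of the class III lipid kinase complex, which makes phosphatidylinositol 3-phosphate on the growing membrane, had a median log2 fold change of −0.06, with 5 of 6 negative and none at an unadjusted p under 0.05. Pik3c3, the catalytic subunit, was at 25.03 ± 1.44 CPM in GRMAC and 26.3 ± 0.884 CPM in GRflox liver (−0.07, interval −0.19 to 0.06). Pik3r4, its regulatory subunit, had the most negative value of the complex, −0.10 (interval −0.23 to 0.02). Becn1, the beclin scaffold of the complex, stood at −0.03, and its row shares 435 bases with that of Cntd1 on the opposite strand. Atg14 and Uvrag encode the alternative partners that direct the complex to autophagosomes or to endosomes. Uvrag had a log2 fold change of −0.05 (interval −0.20 to 0.11), and Ambra1, which encodes a regulator of beclin and ULK1, had 0.04 (interval −0.06 to 0.14).

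Atg14 showed how much 1 library can carry. It was at 19.5 CPM in GRMAC liver 5, against 25.4 to 31.8 CPM in the other 4 GRMAC livers and a tight 27.5 to 29.6 CPM in GRflox liver. Its log2 fold change was −0.09 with all libraries and 0.00 without GRMAC liver 5. The coefficient of variation of Atg14 was 17.5% in GRMAC and 2.78% in GRflox liver.

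The conjugation machinery, which couples ATG12 to ATG5 and the ATG8 proteins to lipid, had a median log2 fold change of −0.02, with 3 positive and 7 negative values among 10 genes tested and none at an unadjusted p under 0.05. Atg7, the activating enzyme of both reactions, was at 31.4 ± 2.31 CPM in GRMAC and 31.2 ± 2.29 CPM in GRflox liver (0.01, interval −0.14 to 0.16). Atg3, the enzyme that passes ATG8 to lipid, was at 75.6 ± 5.33 CPM in GRMAC and 75.5 ± 3.08 CPM in GRflox liver (0.00, interval −0.12 to 0.13). Atg10, which acts in the same way on ATG12, was the scarcest gene of the step, at 2.65 ± 0.308 CPM in GRMAC and 2.69 ± 0.180 CPM in GRflox liver. Atg5 (−0.03, interval −0.15 to 0.08) and Atg16l1 (−0.01, interval −0.11 to 0.10), which form the ligase complex with ATG12, had narrow intervals as well. Atg12 itself had the lowest p of the step: 35.5 ± 1.19 CPM in GRMAC and 38.3 ± 2.08 CPM in GRflox liver, a log2 fold change of −0.11 (interval −0.23 to 0.01; adjusted p = 0.327 with edgeR).

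The ATG4 proteases cut the ATG8 proteins before they are attached and release them afterwards. Atg4b, known as the most active of them, was at 29.9 ± 1.56 CPM in GRMAC and 30.3 ± 1.06 CPM in GRflox liver (−0.02, interval −0.14 to 0.10). Atg4c had a log2 fold change of 0.06 (interval −0.11 to 0.23). Atg4d was at 24.8 CPM in GRMAC liver 4 and at 31.8 to 37.4 CPM in the other GRMAC livers, against 34.04 to 36.5 CPM in GRflox liver. Its log2 fold change was −0.14 with all libraries and −0.06 without GRMAC liver 4, and its row shares 1381 bases with Kri1 on the opposite strand. The Atg4a row could not be used: its coordinates in the count table, chr3:103643953-103646068, are those of the pseudogene Atg4a-ps, whereas RefSeq places Atg4a on the X chromosome. That row held 0 to 4 counts in GRMAC and 0 to 3 in GRflox libraries, below the filter. Atg16l2, a paralog of Atg16l1, varied more in both genotypes than any other gene of the step, from 16.03 to 27.9 CPM in GRMAC and from 15.5 to 30.2 CPM in GRflox liver, and its log2 fold change of −0.09 had an interval of −0.50 to 0.33. It was −0.23 without GRMAC liver 4, −0.18 without GRflox liver 4 and 0.07 without GRflox liver 1.

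**Figure D2:**
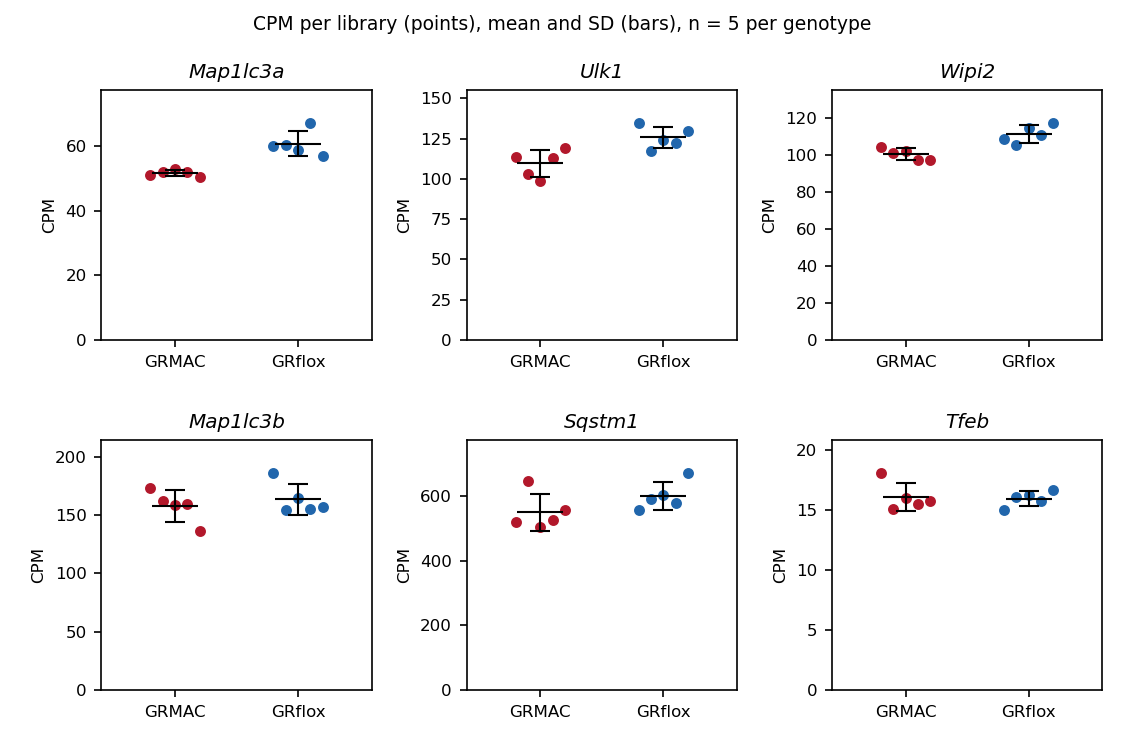
CPM in each of the 5 GRMAC and 5 GRflox libraries for Map1lc3a, Ulk1, Wipi2, Map1lc3b, Sqstm1 and Tfeb, with the mean as a line and the SD as a bar. The GRMAC and GRflox points are apart for Map1lc3a and Wipi2, overlap by 1 GRMAC library for Ulk1 and for Sqstm1, and are intermixed for Map1lc3b and Tfeb.

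All 5 genes of the ATG8 family, whose proteins are attached to the membrane and recruit cargo receptors, had negative log2 fold changes, with a median of −0.09 and no gene past the edgeR test. The sign of each held under every scaling tried. Map1lc3a lies at chr2:155276364-155278073 on the plus strand. Map1lc3a had 50.9, 52.0, 52.9, 51.8 and 50.3 CPM in the GRMAC livers 1 to 5, against 59.9, 60.2, 58.8, 67.2 and 57.0 CPM in the GRflox livers 1 to 5. The GRMAC livers lay close together and all below the lowest GRflox liver, and GRflox liver 4 was the highest. Map1lc3a averaged 51.6 ± 0.980 CPM in GRMAC and 60.6 ± 3.88 CPM in GRflox liver (SD, n = 5 each), a difference of −14.9% and a log2 fold change of −0.23 ± 0.05 (SE; 95% interval −0.35 to −0.12). The adjusted p was 0.0728 with edgeR, 0.00558 with DESeq2 and 0.00560 in the authors' deposited table. With 1 library left out at a time the fold change ran from −0.25 to −0.19, and the adjusted edgeR p from 0.0768 to 0.146.

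The transcript of Map1lc3a has a GC content of 63.1%, close to the highest on the list. After the GC correction its log2 fold change was −0.20 with an adjusted edgeR p of 0.139. The GC content of a transcript moved with genotype in these libraries, as given above, and its part in the difference beyond that correction was not tested.

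Map1lc3b encodes LC3B, the protein most often used to count autophagosomes. It had 173.6, 161.8, 158.3, 159.9 and 136.2 CPM in the GRMAC livers 1 to 5, against 186.4, 154.2, 164.9, 155.2 and 156.8 CPM in the GRflox livers 1 to 5. The groups overlapped broadly, with the lowest value in GRMAC liver 5 and the highest in GRflox liver 1. Map1lc3b averaged 157.9 ± 13.6 CPM in GRMAC and 163.5 ± 13.5 CPM in GRflox liver (SD, n = 5 each), a log2 fold change of −0.05 ± 0.07 (SE; 95% interval −0.21 to 0.11; adjusted p = 0.782 with edgeR). Its sign rested on GRMAC liver 5, without which it was 0.00. The GABARAP branch of the family, which acts mainly in closing the autophagosome and fusing it with the lysosome, gave −0.05 for Gabarap (interval −0.18 to 0.08), −0.09 for Gabarapl1 (−0.31 to 0.13) and −0.11 for Gabarapl2 (−0.22 to 0.01). Gabarapl1, the most abundant of the family, spread from 370.3 to 546.9 CPM in GRMAC and from 421.5 to 508.5 CPM in GRflox liver. Gabarapl2 has an annotated pseudogene, so its counts may be shared.

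The receptors that bind cargo and hand it to the ATG8 proteins had a median log2 fold change of −0.03, with 2 positive and 3 negative values. Sqstm1, which encodes the ubiquitin-binding receptor p62, was the most abundant of them. It had 519.0, 646.6, 503.7, 524.6 and 555.6 CPM in the GRMAC livers 1 to 5, against 557.5, 590.5, 603.8, 577.0 and 672.2 CPM in the GRflox livers 1 to 5. Of the GRMAC livers, 4 lay below every GRflox liver, and GRMAC liver 2 was above all GRflox livers but one. Sqstm1 averaged 549.9 ± 57.3 CPM in GRMAC and 600.2 ± 43.7 CPM in GRflox liver (SD, n = 5 each), a log2 fold change of −0.13 ± 0.08 (SE; 95% interval −0.30 to 0.04; adjusted p = 0.455 with edgeR). Without GRMAC liver 2 it was −0.19 (adjusted p = 0.225), which did not pass either.

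Nbr1, another ubiquitin-binding receptor, was steady, at 253.0 ± 9.74 CPM in GRMAC and 259.0 ± 6.38 CPM in GRflox liver (−0.03, interval −0.15 to 0.08). Optn, a receptor for damaged mitochondria and bacteria, was at 185.8 ± 6.88 CPM in GRMAC and 201.1 ± 20.8 CPM in GRflox liver, a log2 fold change of −0.11 (interval −0.27 to 0.04). GRflox liver 1 held the highest Optn value, 233.3 CPM. Bnip3 and Bnip3l encode mitophagy receptors of the outer mitochondrial membrane, known to respond to low oxygen. Bnip3 ranged from 394.1 to 571.7 CPM in GRMAC and from 343.0 to 513.8 CPM in GRflox liver, with a log2 fold change of 0.11 (interval −0.14 to 0.37). Bnip3l ranged from 132.6 to 177.3 CPM in GRMAC and from 135.8 to 160.6 CPM in GRflox liver (0.00, interval −0.19 to 0.20), and it too has an annotated pseudogene.

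Tfeb encodes the transcription factor that mTORC1 keeps in the cytoplasm and that enters the nucleus in starved cells, a step that a transcript level does not show. Tfeb had 18.1, 15.1, 16.03, 15.6 and 15.8 CPM in the GRMAC livers 1 to 5, against 14.98, 16.1, 16.3, 15.8 and 16.6 CPM in the GRflox livers 1 to 5. The groups were intermixed, with the highest value in GRMAC liver 1. Tfeb averaged 16.1 ± 1.18 CPM in GRMAC and 15.96 ± 0.632 CPM in GRflox liver (SD, n = 5 each), a log2 fold change of 0.01 ± 0.07 (SE; 95% interval −0.13 to 0.16; adjusted p = 0.945 with edgeR). Its relative Tfe3 was at 30.6 ± 3.34 CPM in GRMAC and 33.4 ± 2.42 CPM in GRflox liver (−0.12, interval −0.30 to 0.05). The lysosomal membrane proteins encoded by Lamp1 and Lamp2, of which LAMP2 also serves in the fusion with autophagosomes, were among the most abundant products of the list. Lamp1 was at 535.4 ± 26.8 CPM in GRMAC and 554.1 ± 23.1 CPM in GRflox liver (−0.05, interval −0.18 to 0.08). Lamp2 was at 626.4 ± 20.2 CPM in GRMAC and 628.3 ± 19.9 CPM in GRflox liver (0.00, interval −0.12 to 0.12).

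Levels were set side by side per kilobase of transcript, which allows genes to be compared. Lamp2 was highest, at a mean of 287 CPM per kb in GRMAC and 288 in GRflox liver. Sqstm1 followed at 270 CPM per kb in GRMAC and 295 in GRflox liver, then Bnip3 at 264 and 243, Lamp1 at 240 and 249, and Gabarapl1 at 234 and 249, in GRMAC and GRflox liver in each case. These 5 genes stood apart from Gabarap, the sixth, at 109 CPM per kb in GRMAC and 112 in GRflox liver. The lowest were Atg16l2, at 3.14 CPM per kb in GRMAC and 3.34 in GRflox liver, and Atg10, at 1.67 and 1.70. Within the ATG8 family, Gabarapl1 came first and Gabarapl2 last in both genotypes, and Map1lc3b at 62.4 CPM per kb in GRMAC and 64.6 in GRflox liver was above Map1lc3a at 46.4 and 54.5. Within the ULK pair, Ulk1 at 21.0 and 24.1 CPM per kb was above Ulk2 at 10.9 and 10.3.

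**Figure D3:**
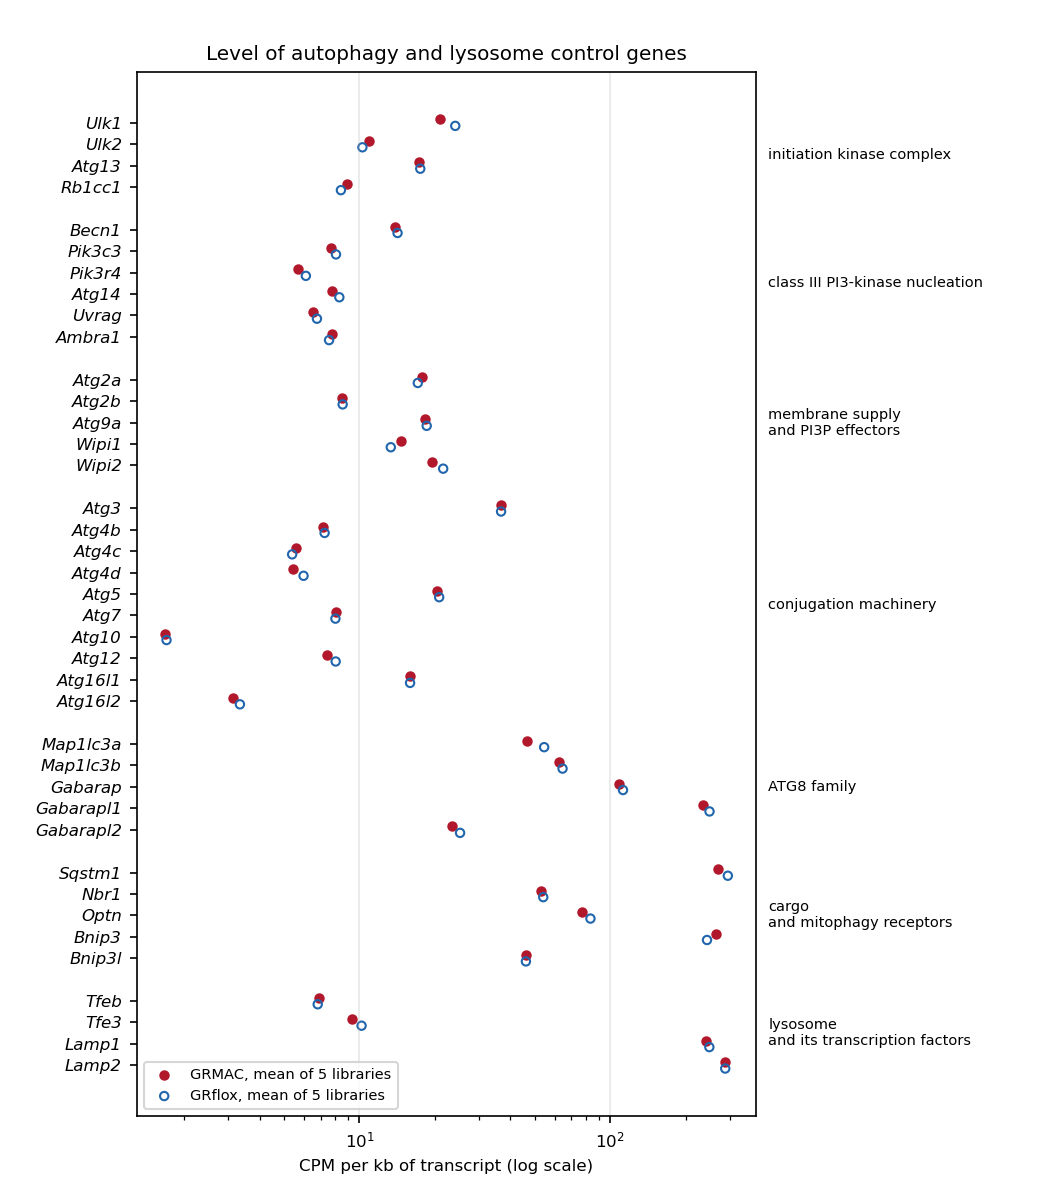
Mean CPM per kilobase of transcript over 5 libraries, on a log axis, in GRMAC and GRflox liver for the 39 tested genes, grouped by step. The spread between libraries is not drawn. The 2 genotypes lie close together at every gene, while the genes span from about 1.67 (Atg10) to 288 (Lamp2) CPM per kb.

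The spread between libraries was wider in GRMAC for most of the genes, a difference that was not tested. The median coefficient of variation over the 39 genes was 7.29% in GRMAC and 4.55% in GRflox liver, beside 10.9% and 9.94% over all genes tested. It was higher in GRMAC for 27 of the 39 genes (69.2%), beside 56.4% of all genes. In GRMAC liver Wipi1 varied most, with 31.2% beside 13.3% in GRflox liver, and in GRflox liver Atg16l2 did, with 22.8% in GRMAC and 25.2% in GRflox liver. Of the 39 lowest values among the 10 libraries, 11 were in GRMAC liver 4 and 8 in GRMAC liver 5, against at most 5 in any GRflox liver. Of the 39 highest values, 10 were in GRMAC liver 2, among them those of Ulk2, Atg14 and Gabarapl1. The median deviation of the 39 genes from their mean over all libraries was −0.05 (log2) in GRMAC liver 4 and −0.04 in GRMAC liver 5, and 0.01 to 0.04 in the GRflox livers.

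**Figure D4:**
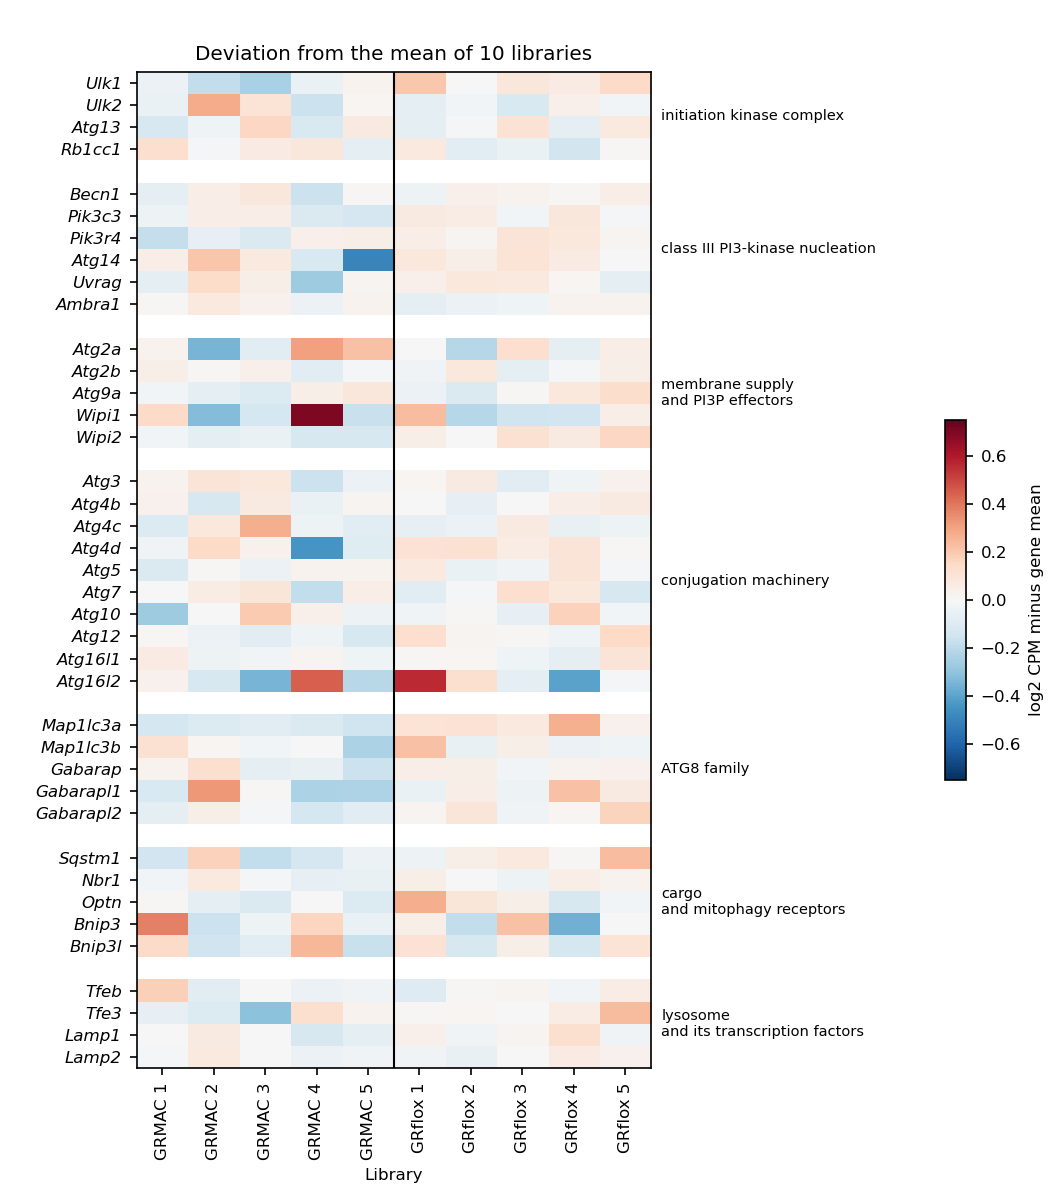
Deviation of each tested gene from its mean over all 10 libraries, as log2 CPM, with genes in rows by step and the GRMAC livers left of the GRflox livers. Map1lc3a is below its mean in all 5 GRMAC livers, and the widest single departures are those of Wipi1 in GRMAC liver 4 (0.70), Atg16l2 in GRflox liver 1 (0.56) and Atg14 in GRMAC liver 5 (−0.50).

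Step by step, the median deviation per library overlapped between the genotypes. For the ATG8 family it was −0.16 to 0.04 in GRMAC and −0.02 to 0.05 in GRflox livers. For the class III lipid kinase complex it was −0.11 to 0.06 in GRMAC and 0.01 to 0.05 in GRflox livers. For the conjugation machinery it was −0.04 to 0.05 in GRMAC and −0.02 to 0.01 in GRflox livers, the smallest spread of the 7 steps in GRflox.

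Genes around the pathway were counted from 5 further lists, to be read beside the 8.58% of all genes that were higher and the 7.75% that were lower in GRMAC at an unadjusted p under 0.05. Of the 40 genes for lysosomal hydrolases and their cofactors, none passed with edgeR, 3 were lower and 1 higher in GRMAC at an unadjusted p under 0.05, and the median log2 fold change was −0.01. The authors' deposited table called 2 of the 40, both lower in GRMAC, where it called 3.38% of all genes and 1.51% in that direction. One was Gaa, the acid glucosidase that breaks down glycogen in the lysosome. Gaa had 131.6, 126.4, 139.8, 146.1 and 135.3 CPM in the GRMAC livers 1 to 5, against 152.8, 150.4, 155.9, 156.0 and 173.0 CPM in the GRflox livers 1 to 5. The groups did not overlap, and Gaa averaged 135.9 ± 7.55 CPM in GRMAC and 157.6 ± 8.90 CPM in GRflox liver (SD, n = 5 each), a log2 fold change of −0.21 ± 0.06 (SE). Its adjusted p was 0.112 with edgeR and 0.0209 in the authors' deposited table.

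The other was Psap, whose product is cut into the saposins, activators of sphingolipid breakdown. Psap had 596.9, 583.6, 596.5, 627.6 and 576.3 CPM in the GRMAC livers 1 to 5, against 646.4, 670.0, 661.0, 637.5 and 708.7 CPM in the GRflox livers 1 to 5. Again every GRMAC liver was below every GRflox liver. The log2 fold change of Psap was −0.16 ± 0.06 (SE), with an adjusted p of 0.199 with edgeR and 0.0284 in the authors' deposited table.

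The 17 subunit genes of the V-ATPase, the proton pump that acidifies the lysosome, had a median log2 fold change of −0.07. The fold change was negative for 14 and positive for 3, where it was negative for 49.8% of all genes. Whether this count moves with the scaling was not tested. None passed with edgeR or in the deposited comparison, and 2 were lower at an unadjusted p under 0.05. The lowest p was that of Atp6v0c, which encodes the ring subunit of the membrane sector. Atp6v0c ranged from 7.22 to 10.1 CPM in GRMAC and from 10.2 to 11.3 CPM in GRflox liver, without overlap, a log2 fold change of −0.28 ± 0.10 (SE; adjusted p = 0.197 with edgeR).

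Of 33 tested genes of mTORC1, AMPK and amino acid sensing, which set the activity of ULK1 and TFEB, none passed with edgeR, 4 were higher and 3 lower at an unadjusted p under 0.05, and the median was −0.04. Sesn3, which encodes a sestrin that restrains mTORC1, was the 1 gene of the 33 that the authors' deposited table called, where it called 3.38% of all genes. Sesn3 had 6.72, 7.78, 9.21, 7.57 and 7.45 CPM in the GRMAC livers 1 to 5, against 6.01, 5.08, 5.78, 5.52 and 4.06 CPM in the GRflox livers 1 to 5. Every GRMAC liver was above every GRflox liver. Sesn3 averaged 7.74 ± 0.909 CPM in GRMAC and 5.29 ± 0.769 CPM in GRflox liver (SD, n = 5 each), a log2 fold change of 0.55 ± 0.12 (SE), with an adjusted p of 0.0700 with edgeR and 0.00396 in the authors' deposited table. Castor1, Castor2 and Stk11 were not analysed here, and Rragb was below the filter.

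Of 34 other autophagy genes none passed with edgeR or in the deposited comparison, 1 was higher and 2 lower at an unadjusted p under 0.05, and the median was −0.04. Wdr45, another binder of phosphatidylinositol 3-phosphate, had the lowest p. It was at 48.1 ± 2.91 CPM in GRMAC and 54.1 ± 1.29 CPM in GRflox liver, a log2 fold change of −0.17 ± 0.05 (SE; adjusted p = 0.146 with edgeR), and only GRMAC liver 2 reached the range of the GRflox livers. Of 19 tested genes for FOXO and other transcription factors that act on autophagy genes, none passed with either, 1 was higher and 3 lower at an unadjusted p under 0.05, and the median was −0.05. The higher one was Nr1h4, which encodes the bile acid receptor FXR, known to repress autophagy genes in the fed liver. Nr1h4 ranged from 267.6 to 339.3 CPM in GRMAC and from 254.0 to 291.6 CPM in GRflox liver, a log2 fold change of 0.19 ± 0.07 (SE; adjusted p = 0.205 with edgeR), and GRMAC liver 4 was the one that overlapped the GRflox livers.

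**Figure D5:**
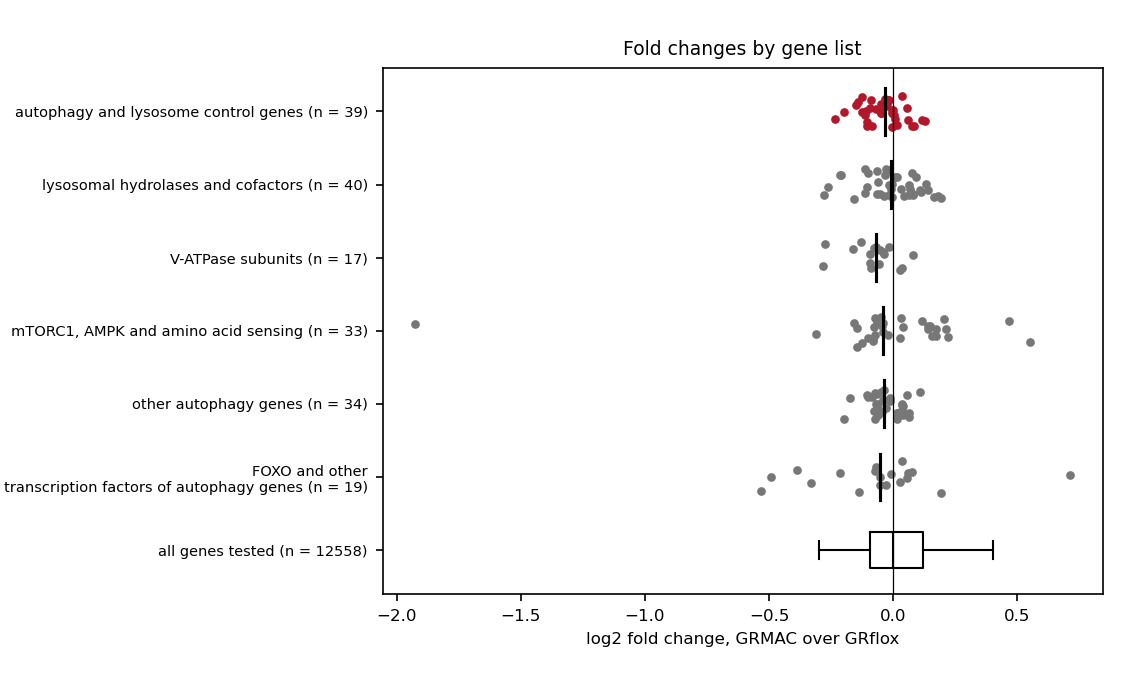
Log2 fold changes of GRMAC over GRflox liver for the tested genes of the listed autophagy and lysosome group and of the 5 surrounding lists, 1 point per gene, with the median of each list marked. The medians lie between −0.07 and −0.01, and the listed group spans a narrower range than the surrounding lists of mTORC1 signalling and of transcription factors.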

How the data were processed

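The counts are whole read counts per gene and library, as deposited by the authors, with 1 RefSeq transcript and its coordinates per row. HISAT2 2.1.0, DESeq2 1.24.0 and mm10 are named in the submitters' processing notes; the counting program, annotation and strand setting are not given in the sources used here. A second deposited table, labelled DESeq2, holds the authors' log2 fold changes of knockout over control, per the file headers. The same deposited table gives the authors' adjusted p-values, and its 10 columns of values per library were not used. The labels number the libraries but do not say that each is a separate animal, so p-values measure only the spread between these samples.

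Low counts were filtered by filterByExpr (edgeR 4.0.16, R 4.3.3), which kept 12558 of 19764 genes and removed 0.0348% of counts. Libraries were scaled by TMM and both genotypes entered the quasi-likelihood test of edgeR, estimated robustly, with p-values adjusted by Benjamini-Hochberg over all genes at a threshold of 0.05. Standard errors come from the fold change and its F statistic. A count of 3 in a library equals 0.111 to 0.129 CPM. Alternatives were DESeq2 1.42.0, limma-voom (limma 3.58.1), other filters, RLE, upper-quartile and total-count scaling, a block for the replicate number, an offset for GC content (a spline of 5 degrees of freedom per library, for 99.9% of tested genes), and leaving out each library. The fits were tested on simulated data. The GC slope is that of each library's log2 deviation from the gene mean. Levels per kilobase use the transcript length of the annotation, and promoters come from RefSeq. Members and lists were chosen with earlier results of these data known. All 40 genes are named; values in every library are given for those with an unadjusted edgeR p under 0.05 or a call by edgeR, DESeq2 or the deposited table, and for Tfeb, Ulk1, Sqstm1 and Map1lc3b; from each list, the called genes or else the one with the lowest p.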

Additional observations from a re-analysis of the deposited data

Results flagged for a closer look

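A value was picked out where 1 of 5 libraries of a genotype stood farther from the nearest of the others than Dixon's critical value of 0.71 of the range allows. This was so in 7 of 112 groups examined, where chance gives about 5.6, or 1 in 20.

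Among the single genes, Atg4c was at 18.3 CPM in GRflox liver 3, with the other GRflox livers at 16.7 to 17.0 CPM. Atg10 was at 3.004 CPM in GRflox liver 4, with the others at 2.55 to 2.67 CPM. Tfe3 was at 37.7 CPM in GRflox liver 5, with the others at 31.99 to 33.2 CPM.

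Among the grouped values, the genes for FOXO and other transcription factors summed to 1671 CPM in GRMAC liver 4, with the other GRMAC livers at 1810 to 1852 CPM. The median deviation of the class III lipid kinase genes was 0.0081 (log2) in GRflox liver 5, with the others at 0.042 to 0.050. That of the cargo and mitophagy receptors was −0.12 in GRflox liver 4, with the others at 0.0021 to 0.047. The GC slope was 0.0087 (log2 per 10 percentage points) in GRMAC liver 5, with the other GRMAC livers at −0.054 to −0.043, so this library lay within the range of the GRflox livers.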

How the results depend on the processing

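The number of listed genes called was 0 in each alternative to the edgeR fit, the 10 fits with a library left out included, except with DESeq2, which called 1: Map1lc3a, with a log2 fold change of −0.24 (adjusted p 0.00558, beside 0.0702 to 0.146 in the other alternatives). Over all genes tested, the count of 22 calls became 425 with DESeq2, 8 with limma-voom, 8 without robust estimation, 34 with no filter, 81 with the replicate number as a block and 5 with the GC offset; the cause was not tested. It ran from 5 to 47 with a library left out, where the highest was without GRMAC liver 5 and the lowest without GRflox liver 3 or GRflox liver 5. The block is reported only here, since libraries with the same number had correlations of −0.11 to 0.17, 2 of 5 GRMAC and 2 of 5 GRflox libraries correlated best with their own number, and the numbers were not taken to pair them. With the block, 20 of the 22 genes remained, and it called no listed gene.

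The sign of the log2 fold change turned for these genes. Atg3 was −0.00077 with DESeq2, −0.00086 with limma-voom, −0.000094 with RLE scaling, −0.0013 with no filter, −0.00084 with the replicate block and −0.052 with the GC offset. Bnip3l was −0.0010 with limma-voom, −0.0011 with the replicate block and −0.076 with the GC offset. With upper-quartile scaling Atg2b was 0.0060, Atg16l1 0.0065 and Lamp2 0.0070. With library totals alone Atg2b was 0.015, Atg16l1 0.016, Lamp2 0.016, Atg13 0.0060 and Atg4b 0.00052. Lamp2 was 0.00018 with a mean of at least 1 CPM, and with the GC offset Rb1cc1 was −0.037, Atg9a 0.010 and Atg4c −0.0041.

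With a library left out, fold changes that changed sign ran from −0.054 to 0.016 for Atg13, −0.054 to 0.0025 for Becn1, −0.16 to 0.00068 for Atg14, −0.087 to 0.0088 for Uvrag, −0.015 to 0.15 for Atg2a, −0.020 to 0.018 for Atg2b, −0.054 to 0.0029 for Atg9a, −0.075 to 0.22 for Wipi1, −0.020 to 0.039 for Atg3, −0.036 to 0.010 for Atg4b, −0.0045 to 0.092 for Atg4c and −0.022 to 0.051 for Atg7. They ran from −0.076 to 0.039 for Atg10, −0.024 to 0.019 for Atg16l1, −0.23 to 0.066 for Atg16l2, −0.082 to 0.0013 for Map1lc3b, −0.063 to 0.046 for Bnip3l, −0.028 to 0.040 for Tfeb and −0.020 to 0.010 for Lamp2. Ulk1, Wipi2, Map1lc3a, Sqstm1 and the remaining 15 genes kept their sign throughout. Depth limits Atg10 most, at under 3 CPM on average.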

Other observations

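Ddit4, a stress-induced inhibitor of mTORC1 known to respond to glucocorticoids, had the most negative log2 fold change of the lists around autophagy and is named here after its values were seen. It had 13.8, 6.54, 18.3, 5.03 and 4.24 CPM in the GRMAC livers 1 to 5, against 65.4, 41.1, 52.5, 10.4 and 12.5 CPM in the GRflox livers 1 to 5. The groups overlapped, since GRMAC livers 1 and 3 were above GRflox livers 4 and 5. Ddit4 averaged 9.59 ± 6.18 CPM in GRMAC and 36.4 ± 24.3 CPM in GRflox liver (SD, n = 5 each), a log2 fold change of −1.93 ± 0.66 (SE) that did not pass the test (adjusted p = 0.202 with edgeR). Lyz2, the gene that carries the Cre of LysM-Cre, was at 21.1 ± 5.21 CPM in GRMAC and 32.3 ± 5.51 CPM in GRflox liver, a log2 fold change of −0.62 ± 0.16 (SE), with an adjusted p of 0.114 with edgeR, 0.00904 with DESeq2 and 0.00907 in the authors' deposited table. Only GRMAC mice carry the Cre allele, and its effect on the Lyz2 transcript itself was not tested.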
